A study of Saccharomyces cerevisiae with 9 samples.

Results

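The 18S-side segment of the first external transcribed spacer, the stretch that adjoins the 18S sequence, was examined at single-nucleotide resolution. It was defined as positions 351 to 700 of the yeast 35S ribosomal RNA (rRNA) gene in the rows annotated as ETS 1, which gave 350 positions of the 700 in ETS 1 and of the 6858 in the gene. In build R64 of Saccharomyces cerevisiae these positions span 466870 to 467219 of chromosome XII (minus strand), within RDN37-2 (460712 to 467569), and no further annotated feature falls inside them. All values were native elongating transcript sequencing (NET-seq) reads, in which RNA polymerase I (Pol I) is immunoprecipitated with its RNA and a read marks the last base of an RNA 3′ end. The 9 untreated libraries, all from cells grown at 30 °C, comprised 3 of the wild type (WT), 3 of the rpa34Δ strain and 3 of the rpa49Δ strain. No tag, plasmid or other allele is named in the labels, and RPA34 and RPA49 themselves lie outside the tables, so the deletions were not checked here.

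ETS 1 is the leading spacer of the precursor rRNA and is removed while the small ribosomal subunit is assembled. It binds the U3 small nucleolar RNA and the small-subunit processome, and its 18S-side segment holds the A0 cleavage site and ends at the A1 site. Rpa34 and Rpa49 form a heterodimer of Pol I that is related to the initiation factor TFIIF and takes part in elongation.

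Positions on which the results turn lie in the following stretches, namely the highest WT peak and examples of positions that fell or rose in the deletions. They were read from the deposited base column (R64, minus strand of chromosome XII, RNA letters, 5′ to 3′), and the capitals mark the position named or the run of 5 U.
Position 405 (window XII 467150 to 467180), the position with the largest fall in both deletions: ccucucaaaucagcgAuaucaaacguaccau
Position 437 (window XII 467118 to 467148), the highest WT position: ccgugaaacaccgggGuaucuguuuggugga
Position 496 (window XII 467059 to 467089), a WT peak that fell in both deletions: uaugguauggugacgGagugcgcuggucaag
Positions 523 to 527 (window XII 467028 to 467062), a run of U whose bases 525 and 527 rose in both deletions: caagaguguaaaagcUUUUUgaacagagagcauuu
Position 577 (window XII 466978 to 467008), higher in rpa49Δ: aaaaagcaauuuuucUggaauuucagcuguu
Position 626 (window XII 466929 to 466959), higher in both deletions: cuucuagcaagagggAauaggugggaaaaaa

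The depth of the libraries ran from 1242139 to 5353045 recovered reads over the gene. The segment itself held 113254, 108558 and 157391 reads in the WT libraries, 34790, 55618 and 45866 in rpa34Δ, and 8890, 9901 and 6078 in rpa49Δ. The median position had 126.5 to 183 reads in WT, 36.5 to 59 in rpa34Δ and 6 to 9 in rpa49Δ. In the rpa49Δ libraries 12, 11 and 24 of the 350 positions were at 0 reads, so low positions of that strain rest on few reads. Values are given as RPM (reads per 1000000, with each library summing to 1000000 across the gene) and as a share of the ETS 1 reads of the same library. Both are shares, so they describe how reads were distributed and not how much RNA a cell held.

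The level of the segment was lower in both deletions, and lowest in rpa49Δ. The WT libraries held 25461, 22348 and 29402 RPM in the segment, a mean of 25740 ± 3535 (SD, n = 3). The rpa34Δ libraries held 13105, 15556 and 13620 RPM (mean 14090 ± 1292, n = 3), and the rpa49Δ libraries 5746, 6314 and 4893 RPM (mean 5651 ± 715, n = 3). No library of any strain overlapped those of another. The mean of rpa34Δ was 1.83 times lower than that of WT, that of rpa49Δ 4.55 times lower than WT and 2.49 times lower than rpa34Δ. Each of the 3 differences had p = 0.1 in a two-sided exact permutation test, which is the smallest p that 3 libraries against 3 can give, and 0.1 after adjustment over the 3. Nothing in the labels says that libraries of a strain came from separate cultures, so every p-value speaks only of the spread among libraries, which may be technical.

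Read density in the segment was below that of the rest of ETS 1 and of the mature rRNA in every strain. Per nucleotide the segment held 73.5 ± 10.1 RPM in WT, 40.3 ± 3.69 in rpa34Δ and 16.2 ± 2.04 in rpa49Δ (SD, n = 3). The promoter-side segment of ETS 1 (positions 1 to 350) held 101, 55.6 and 26.0 RPM per nucleotide in the same order, and the mature rRNA 169, 176 and 182. The median position of the segment held 29.9 RPM in WT, 14.6 in rpa34Δ and 5.46 in rpa49Δ.

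**Figure D1:**
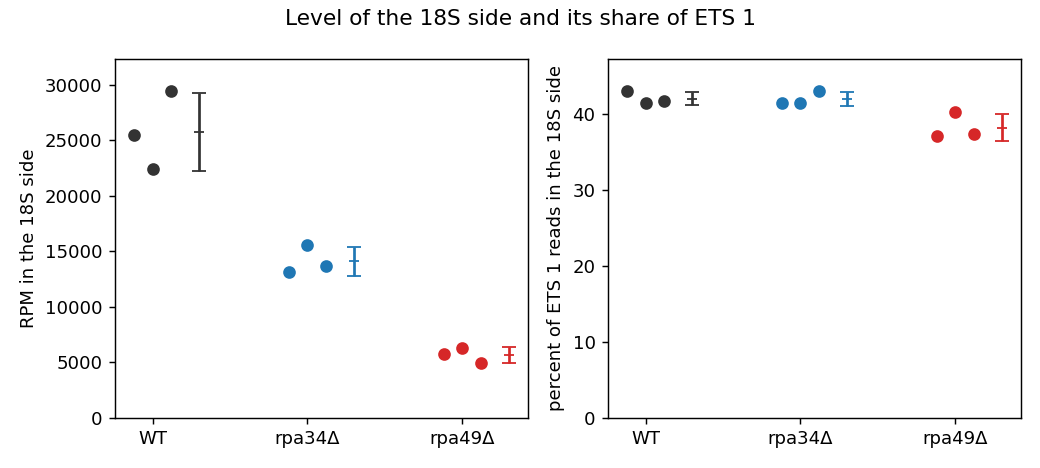
Level of the segment in RPM (left) and as a percent of ETS 1 reads (right). Each point is 1 library, and the dash and bar beside the points are the mean and SD of 3 libraries. The strains do not overlap on the left, where WT lies between 22348 and 29402 RPM and rpa49Δ between 4893 and 6314, while on the right WT and rpa34Δ overlap near 42%.

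As a share of ETS 1, the segment differed much less. It held 43.0%, 41.5% and 41.8% of ETS 1 reads in the WT libraries (mean 42.1% ± 0.818, SD, n = 3) and 41.5%, 41.5% and 43.1% in rpa34Δ (mean 42.0% ± 0.920). These groups overlapped, with a difference of -0.084 percentage points (exact permutation test, two-sided p = 0.8). The rpa49Δ libraries held 37.2%, 40.3% and 37.4% (mean 38.3% ± 1.74), below all WT and rpa34Δ libraries, with differences of -3.82 and -3.74 points (exact p = 0.1 each, adjusted p = 0.15 over the 3 shares). The exact (Clopper-Pearson) 95% interval of a single library's share reached at most 0.749 points from its value, for counting error only. The sign of the difference in rpa49Δ depended on whether 1 position outside the segment was counted. Leaving out a position there can only raise the share of the segment, so the direction of that change was fixed in advance. Position 106, in the promoter-side segment, held 18.2%, 13.0% and 8.40% of ETS 1 reads in rpa49Δ against 0.712% ± 0.0486 in WT and 3.24% ± 0.242 in rpa34Δ. Without it, a setting chosen after the data were seen, the share of the segment was 1.78 points above WT in rpa49Δ (p = 0.4, exact permutation test) and 1.02 points above WT in rpa34Δ (p = 0.3). Without the 5 highest positions of each of the 2 segments it was 2.17 points above WT in rpa49Δ and 3.01 points above WT in rpa34Δ.

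Within the segment, single positions were tested with limma on log2(RPM + 10) across all positions of the gene that had a read, with Benjamini-Hochberg adjustment over all of them and a threshold of 0.05. All 350 positions of the segment were tested. On the library scale 235 were lower and 12 higher in rpa34Δ than in WT, where 24.0% of all tested positions of the gene were lower and 18.6% higher. In rpa49Δ 305 were lower and 7 higher than in WT, where 33.3% of the gene was lower and 24.4% higher. Against rpa34Δ, 218 were lower and 5 higher in rpa49Δ, where 22.4% of the gene was lower and 9.73% higher. The median log2 difference from WT over the 350 positions was -0.48 in rpa34Δ and -1.28 in rpa49Δ, and it was -0.59 between the deletions, and over all tested positions of the gene it was 0.00, -0.03 and -0.03. The comparisons with WT share the same WT libraries and are therefore not independent of each other. The pseudocount makes these log2 differences understate the change of low positions.

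Relative to ETS 1, the positions divided more evenly. On log2(reads per 1000000 ETS 1 reads + 200), tested with limma and adjusted over ETS 1, 101 of the 350 were higher and 110 lower in rpa34Δ than in WT, against 29.2% and 37.8% of the tested positions of ETS 1. For rpa49Δ against WT 51 were higher and 140 lower, against 15.6% and 42.6% of ETS 1. Between the deletions 43 were higher and 110 lower in rpa49Δ, against 13.9% and 31.2% of ETS 1. The medians over the 350 were 0.00, -0.29 and -0.09 log2, and over all tested ETS 1 positions -0.08, -0.36 and -0.11. The shares of the segment were close to those of ETS 1, of which it is a part. With the median log2 value over ETS 1 set equal between libraries, the split became 160 higher and 80 lower in rpa34Δ, 116 and 80 in rpa49Δ (both against WT), and 79 and 86 between the deletions. The shares of all ETS 1 positions called under that setting are not given, so these counts cannot be set against ETS 1 as a whole.

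**Figure D2:**
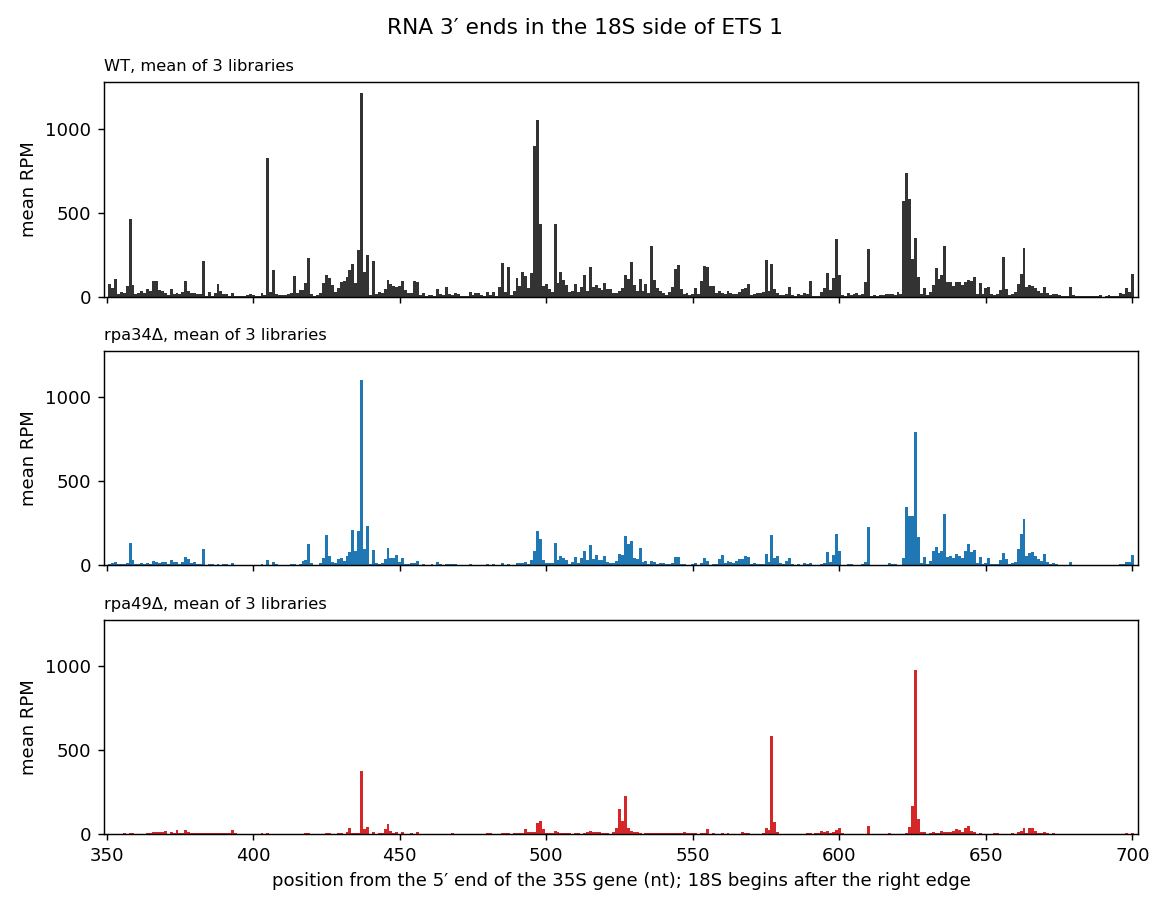
Mean RPM at each of the 350 positions in WT, rpa34Δ and rpa49Δ (3 libraries each, same vertical axis), with the 18S sequence beginning to the right. WT shows peaks at 405, 437, 496 to 498 and 622 to 624. In rpa34Δ the peaks at 437 and 626 stand out, and in rpa49Δ those at 437, 525 to 527, 577 and 626.

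The WT profile was spread over many positions, with a few clear peaks. The 10 highest were, in order, positions 437, 497, 496, 405, 623, 624, 622, 358, 503 and 498, from 1214 RPM down to 430.7 RPM, and the position ranked next held 351.7 RPM. Of these 10, 6 ended in G, 3 in A, 1 in C and 0 in U, while U makes up 103 of the 350 positions. Together they held 27.9% ± 0.894 of the reads of the segment in WT, 18.1% ± 0.861 in rpa34Δ and 11.2% ± 2.73 in rpa49Δ (SD, n = 3). They were chosen for their WT level, so a lower share elsewhere is a description. The 10 highest of rpa34Δ included 3 of them and the 10 highest of rpa49Δ 2 of them. In rpa34Δ the 10 highest were 437, 626, 623, 636, 624, 625, 663, 439, 610 and 434, and in rpa49Δ they were 626, 577, 437, 527, 625, 525, 627, 526, 498 and 578. Of the U ends in the former, 663 held 289 ± 27.0 RPM in WT, 278 ± 23.9 in rpa34Δ and 34.4 ± 5.73 in rpa49Δ, and 610 held 282.5 ± 35.2, 227 ± 10.1 and 47.7 ± 14.5. Both passed as lower in rpa49Δ than in WT (limma adjusted p = 2.53e-10 and 1.87e-08), and in rpa34Δ 610 was lower than in WT (limma adjusted p = 0.0188) while 663 did not pass (limma adjusted p = 0.637).

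Position 437, the highest in WT, was kept as a peak in all strains. The WT libraries held 1310, 979 and 1353 RPM there, rpa34Δ 1003, 1179 and 1132 RPM, and rpa49Δ 262, 406 and 457 RPM. WT and rpa34Δ overlapped, and rpa49Δ lay below both. The log2 difference was -0.12 ± 0.13 (SE) for rpa34Δ against WT (limma adjusted p = 0.482) and -1.69 ± 0.18 for rpa49Δ against WT (limma adjusted p = 1.66e-06). As a share of ETS 1 it was higher in rpa34Δ than in WT, 3.30% against 1.99% (log2 difference 0.73, limma adjusted p = 0.000162), and 2.59% in rpa49Δ did not pass the test (limma adjusted p = 0.388).

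The bases just upstream of it behaved otherwise in rpa49Δ. Position 425 held 124, 109 and 152 RPM in WT, 183, 211 and 149 in rpa34Δ, and 5.17, 8.29 and 4.03 in rpa49Δ. Position 434 held 192, 157 and 227 RPM in WT, 222, 232 and 182 in rpa34Δ, and 6.46, 7.65 and 4.83 in rpa49Δ. Position 436 held 285, 234 and 313 RPM in WT, 212, 212 and 198 in rpa34Δ, and 9.70, 9.57 and 7.25 in rpa49Δ. At 425, 434 and 436 the rpa49Δ libraries lay far below every other library, 22.0, 30.4 and 31.4 times below the WT mean, on 5 to 15 reads a library. Position 425 was higher in rpa34Δ than in WT (log2 difference 0.47 ± 0.13, limma adjusted p = 0.0116, and 0.0641 without WT replicate 2), with overlapping libraries, position 434 did not pass (0.15 ± 0.12, limma adjusted p = 0.365) and position 436 was lower (-0.40 ± 0.10, limma adjusted p = 0.00588).

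Other WT peaks fell in both deletions. At position 405 the WT libraries held 777, 754 and 941 RPM, rpa34Δ 29.8, 34.1 and 33.6 RPM, and rpa49Δ 3.88, 7.01 and 5.63 RPM (6, 11 and 7 reads). No strain overlapped another, and the mean was 25.4 times lower in rpa34Δ and 149.5 times lower in rpa49Δ than in WT. These were the largest falls of any position of the segment in either comparison with WT on the log2 scale, -4.29 ± 0.10 (limma adjusted p = 6.85e-12) and -5.75 ± 0.13 (limma adjusted p = 2.4e-13).

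Position 496 held 894, 817 and 975 RPM in WT, 75.7, 101 and 88.8 in rpa34Δ, and 12.3, 14.7 and 8.86 in rpa49Δ. The strains were again apart, at 10.1 times below WT in rpa34Δ and 75.1 times below WT in rpa49Δ. Its neighbour 497 fell from 1048 ± 164.5 RPM in WT to 205.9 ± 32.4 in rpa34Δ and 68.9 ± 6.64 in rpa49Δ (SD, n = 3), and 498 from 430.7 ± 72.8 to 159 ± 18.6 and 80.95 ± 19.1. Upstream in the same bin, position 485 fell from 198 ± 23.2 RPM in WT to 14.2 ± 2.09 in rpa34Δ and 10.3 ± 2.68 in rpa49Δ, and 487 from 179 ± 13.2 to 10.9 ± 3.01 and 6.0 ± 2.61. Between the deletions these last 2 positions did not pass the test (limma adjusted p = 0.17 and 0.0612).

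At other positions rpa49Δ fell far beyond rpa34Δ. Position 623 held 769, 572 and 858 RPM in WT, 327, 377 and 344.5 in rpa34Δ, and 7.76, 13.4 and 6.44 in rpa49Δ. The rpa34Δ libraries lay below WT by 2.10 times in the mean, and the rpa49Δ libraries below rpa34Δ by 38.0 times. The log2 difference between the deletions, -4.24 ± 0.15 (limma adjusted p = 2.39e-10), was the largest fall of the segment in that comparison. As a share of ETS 1, position 623 did not pass between rpa34Δ and WT (limma adjusted p = 0.164). Position 358 had the same order, with 465 ± 43.0 RPM in WT, 132.5 ± 13.5 in rpa34Δ and 6.27 ± 1.98 in rpa49Δ.
At position 636, the first base of a run of 11 A, WT held 299.5, 253 and 351 RPM, rpa34Δ 270.5, 361 and 295, and rpa49Δ 14.2, 15.3 and 14.5. WT and rpa34Δ overlapped (limma adjusted p = 0.824), and rpa49Δ was 20.5 times below WT.

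From 622 to 627, 6 adjacent bases went different ways. Position 622 fell from 600, 420 and 692.5 RPM in WT to 33.9, 50.9 and 43.6 in rpa34Δ and 5.82, 5.74 and 0.805 in rpa49Δ, where it had 9, 9 and 1 reads. Position 624 fell from 583 ± 139 RPM to 296 ± 43.6 and 42.2 ± 13.1 (SD, n = 3). Position 625, named after its values were seen, did not pass against WT in either deletion on the library scale, with 225 ± 60.7 RPM in WT, 294 ± 32.2 in rpa34Δ and 166 ± 49.4 in rpa49Δ (limma adjusted p = 0.0525 and 0.0804). Position 627 rose from 119 ± 35.1 RPM in WT to 168 ± 4.70 in rpa34Δ (limma adjusted p = 0.0219, but 0.0519 without WT replicate 2 and 0.0711 without rpa34Δ replicate 1), and at 91.3 ± 23.9 it did not pass in rpa49Δ (limma adjusted p = 0.173).

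Position 626, among these 6, rose in both deletions. The WT libraries held 398, 222 and 435 RPM, rpa34Δ 746, 842 and 785, and rpa49Δ 842, 1291 and 804. Every deletion library lay above every WT library, while the deletions overlapped. The mean was 2.25 times WT in rpa34Δ (log2 difference 1.20 ± 0.18, limma adjusted p = 0.000182) and 2.78 times WT in rpa49Δ (1.47 ± 0.22, limma adjusted p = 4.44e-05). Between the deletions the library scale gave 0.27 ± 0.16 (limma adjusted p = 0.209). As a share of ETS 1 it was 0.568% ± 0.137 in WT, 2.36% ± 0.118 in rpa34Δ and 6.61% ± 1.45 in rpa49Δ, which differed in all 3 comparisons (limma adjusted p = 9.28e-11, 4.81e-06 and 0.000229).

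**Figure D3:**
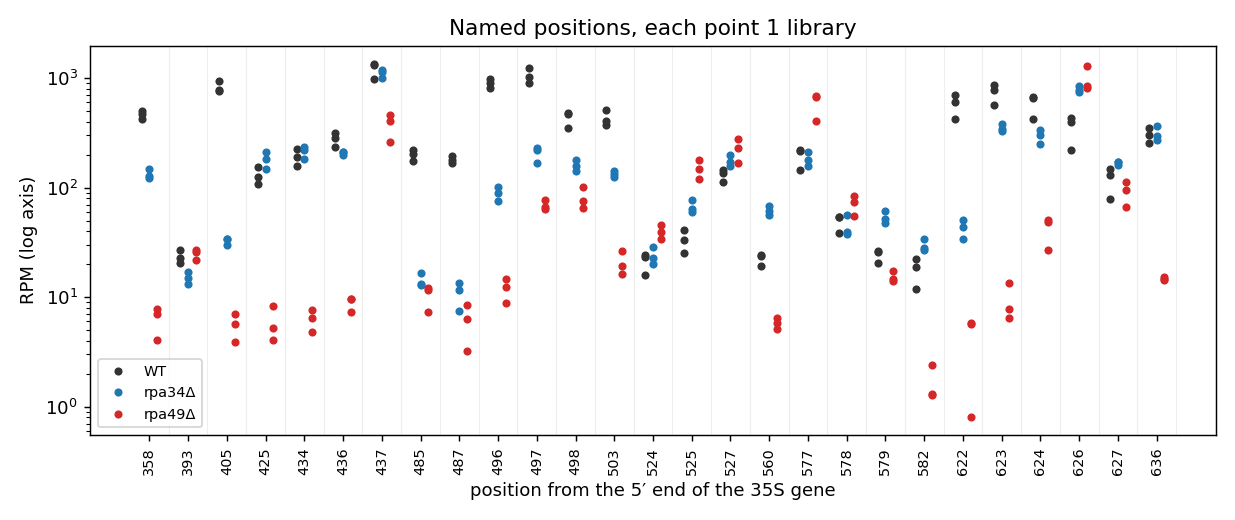
RPM at the 27 named positions on a log axis, 1 point for each library. WT and rpa34Δ lie together at 434, 437 and 636 while rpa49Δ is lower, all 3 strains are apart at 405, 496 and 622, and rpa49Δ is highest in the mean at 525, 577 and 578.

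Position 577, a U, rose in rpa49Δ on the library scale and was higher there than in rpa34Δ. WT held 217, 144.5 and 219 RPM, rpa34Δ 157, 211 and 179, and rpa49Δ 671, 683 and 405. The rpa49Δ libraries were above all others, and WT and rpa34Δ overlapped. The mean of rpa49Δ was 3.03 times that of WT (log2 difference 1.54 ± 0.19, limma adjusted p = 6.11e-06) and 3.21 times that of rpa34Δ (1.60 ± 0.17, limma adjusted p = 6.23e-06), and rpa34Δ against WT gave -0.07 ± 0.14 (limma adjusted p = 0.734). Of all ETS 1 reads it held 0.315% in WT, 0.542% in rpa34Δ and 3.93% in rpa49Δ. On that scale both rpa34Δ and rpa49Δ were higher than WT (log2 differences 0.75 and 3.55). The limma adjusted p was at most 0.00358 and 5.29e-05 over 13 alternatives. The next base, 578, was also higher in rpa49Δ than in WT, at 71.0 ± 14.4 RPM against 48.6 ± 9.08 (limma adjusted p = 0.0289). That call was lost in 4 of 16 alternatives, with limma adjusted p = 0.0769 when scaled on mature rRNA, 0.164 without WT replicate 2, and 0.103 and 0.072 without rpa49Δ replicate 1 or 2.

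In the run of 5 U from 523 to 527, positions 525 and 527 were higher than WT in both deletions. Position 525 held 33.3, 25.5 and 41.3 RPM in WT, 63.3, 76.4 and 60.3 in rpa34Δ, and 180, 147 and 119 in rpa49Δ. The 3 strains did not overlap, with log2 differences of 0.83 ± 0.14 for rpa34Δ (limma adjusted p = 0.00043) and 1.87 ± 0.17 for rpa49Δ (limma adjusted p = 2.93e-07) against WT. Position 527 held 130 ± 16.8 RPM in WT, 176 ± 20.8 in rpa34Δ and 224 ± 54.0 in rpa49Δ, and position 524 held 21.2 ± 4.46, 23.9 ± 4.53 and 39.5 ± 5.73. Position 524 was higher than WT in rpa49Δ (limma adjusted p = 0.00173) and did not pass in rpa34Δ (limma adjusted p = 0.484). Position 526 held 54.3 ± 8.07, 65.0 ± 8.85 and 81.4 ± 25.6 RPM, with libraries of both deletions overlapping WT. It did not pass in rpa34Δ (limma adjusted p = 0.177) and was just under the threshold in rpa49Δ (limma adjusted p = 0.04998). The first U of the run, 523, held 24.3 RPM or less on average in each strain. The whole run held 1.02% of the segment's reads in WT, 2.45% in rpa34Δ and 8.91% in rpa49Δ.

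In RPM, the other runs of 5 or more equal bases were lowest in rpa49Δ, as was the segment as a whole. The run of 5 U at 571 to 575, just upstream of 577, held 60.1 RPM per nucleotide in WT, 21.9 in rpa34Δ and 10.1 in rpa49Δ. The run of 6 U at 665 to 670 held 49.5, 56.7 and 19.6, the run of 11 A at 636 to 646 held 108, 92.2 and 21.9, and the run of 5 A at 562 to 566 held 23.1, 25.7 and 4.14. As a share of the segment's reads, these U runs were not lowest in rpa49Δ, while the A runs were. In the same order of strains, the run of 6 U held 1.16%, 2.41% and 2.09%, and the run of 5 U at 571 to 575 held 1.16%, 0.780% and 0.889%. The run of 11 A held 4.60%, 7.17% and 4.28%, and the run of 5 A 0.452%, 0.913% and 0.366%.

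A few positions were highest in rpa34Δ. Position 560 held 24.3, 19.1 and 23.7 RPM in WT, 68.2, 61.3 and 56.4 in rpa34Δ, and 5.82, 5.10 and 6.44 in rpa49Δ. The strains did not overlap, at log2 differences from WT of 1.15 ± 0.12 in rpa34Δ (limma adjusted p = 4.62e-06) and -1.03 ± 0.12 in rpa49Δ (limma adjusted p = 3.12e-06). In RPM, position 579 had the same order, with 24.1 ± 3.23 in WT, 53.4 ± 7.20 in rpa34Δ and 15.3 ± 1.86 in rpa49Δ. Its call as lower in rpa49Δ than in WT was lost without WT replicate 1 (limma adjusted p = 0.0532). Relative to ETS 1, position 579 was higher in rpa49Δ than in WT (log2 difference 1.06, limma adjusted p at most 0.00479 over 13 alternatives). Position 582 had the order of 560 in RPM, with 17.6 ± 5.24, 29.6 ± 3.98 and 1.66 ± 0.653 (SD, n = 3). Position 393, a C, had another order. It held 23.5 ± 3.29 RPM in WT and 24.8 ± 2.53 in rpa49Δ, which did not pass (limma adjusted p = 0.736), and 15.1 ± 2.00 in rpa34Δ, below both (limma adjusted p = 0.00849 against WT, and 0.0115 against rpa49Δ, or 0.0614 without rpa34Δ replicate 3). As a share of ETS 1, position 393 was highest in rpa49Δ, at 0.170% against 0.0385% in WT and 0.0448% in rpa34Δ (limma adjusted p = 1.91e-05 and 1.89e-05). On that scale rpa34Δ did not pass against WT (limma adjusted p = 0.306).

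At the border with 18S, the last base of ETS 1 (position 700, named after its values were seen) held 119, 116.5 and 161 RPM in WT, 58.0, 63.2 and 65.9 in rpa34Δ, and 7.11, 4.46 and 4.03 in rpa49Δ. The strains did not overlap. Relative to ETS 1 it did not pass in rpa34Δ (limma adjusted p = 0.11) and was lower in rpa49Δ than in WT (log2 difference -2.11 ± 0.17, limma adjusted p = 5.57e-06). The last 10 positions together held 1.04% of the segment's reads in WT, 0.974% in rpa34Δ and 0.573% in rpa49Δ. Those of WT and rpa34Δ overlapped (exact permutation p = 0.6), and rpa49Δ lay below both at the smallest p of 0.1.

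In 50 nt bins the fall against WT was general but uneven. In rpa34Δ 6 of the 7 bins of the segment were lower and 0 higher than in WT by limma (unadjusted p under 0.05 in 7), with 21.0% of the gene's 138 bins lower and 15.9% higher. Of these 6, the bin at 601 to 650 had overlapping libraries (log2 difference -0.40 ± 0.13, limma adjusted p = 0.034). It lost the call in 5 of 8 alternatives, among them limma adjusted p = 0.131 and 0.0872 without WT replicate 1 or 3, and 0.0949 and 0.0848 without rpa34Δ replicate 1 or 3. In rpa49Δ all 7 were lower than in WT, with 31.9% of the gene's bins lower and 30.4% higher, and all 7 were lower than in rpa34Δ, with 28.3% lower and 10.1% higher. The bin at 451 to 500 fell furthest, from 4428, 3996 and 4946 RPM in WT to 835, 980 and 931 in rpa34Δ and 499, 423 and 396 in rpa49Δ. No library of 1 strain reached another there, and its log2 differences from WT were -2.27 ± 0.11 in rpa34Δ and -3.31 ± 0.14 in rpa49Δ. The bin next to 18S, 651 to 700, held 1764, 1620 and 1996 RPM in WT, 1355, 1671 and 1426 in rpa34Δ, and 365, 286 and 293 in rpa49Δ. WT and rpa34Δ overlapped there (-0.27 ± 0.12, limma adjusted p = 0.106), while rpa49Δ was 5.70 times lower than WT. The smallest fall in rpa49Δ was at 551 to 600, 2.60 times, from 2772 ± 417 RPM to 1065 ± 209 (SD, n = 3), in the bin of position 577.

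As shares of ETS 1, bins of the segment moved in both directions. For rpa34Δ against WT 3 bins were higher and 2 lower by limma, beside 50% and 35.7% of the 14 bins of ETS 1. For rpa49Δ against WT 2 were higher and 4 lower, beside 21.4% and 71.4%. Between the deletions 1 was higher and 2 were lower in rpa49Δ, beside 14.3% and 50%. Both deletions lost share at 451 to 500, from 7.31% ± 0.249 in WT to 2.73% ± 0.183 in rpa34Δ and 2.98% ± 0.268 in rpa49Δ, and at 351 to 400, from 3.6% ± 0.136 to 2.59% ± 0.113 and 2.54% ± 0.0564. Both gained at 601 to 650, from 8.39% ± 0.726 to 11.5% ± 0.274 and 11.8% ± 1.93. The deletions did not pass against each other in these 3 bins (limma adjusted p = 0.21, 0.737 and 0.937). At 401 to 450 rpa34Δ gained, from 9.03% ± 0.220 to 9.89% ± 0.213 (limma adjusted p = 0.0118, and 0.0662 without rpa34Δ replicate 1), and rpa49Δ lost, to 5.48% ± 0.969. At 551 to 600 rpa49Δ gained, from 4.53% ± 0.0570 to 7.18% ± 0.761, and rpa34Δ did not pass (limma adjusted p = 0.412). The bin next to 18S went opposite ways in the deletions, from 2.94% ± 0.0935 in WT to 4.42% ± 0.115 in rpa34Δ and 2.14% ± 0.283 in rpa49Δ (between the deletions log2 difference -1.05 ± 0.09, limma adjusted p = 5e-06). Taking the median position of a bin in place of its sum, 0 bins of the segment were higher than in WT in rpa34Δ and 0 in rpa49Δ. The differences at 601 to 650 were then -0.43 and -0.78 log2. Under this setting rpa49Δ did not pass against WT at 351 to 400 (-0.05 log2, limma adjusted p = 0.469). At 651 to 700 neither deletion passed against WT (limma adjusted p = 0.509 in rpa34Δ and 0.487 in rpa49Δ). Nor did the deletions pass against each other there (limma adjusted p = 0.344).

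**Figure D4:**
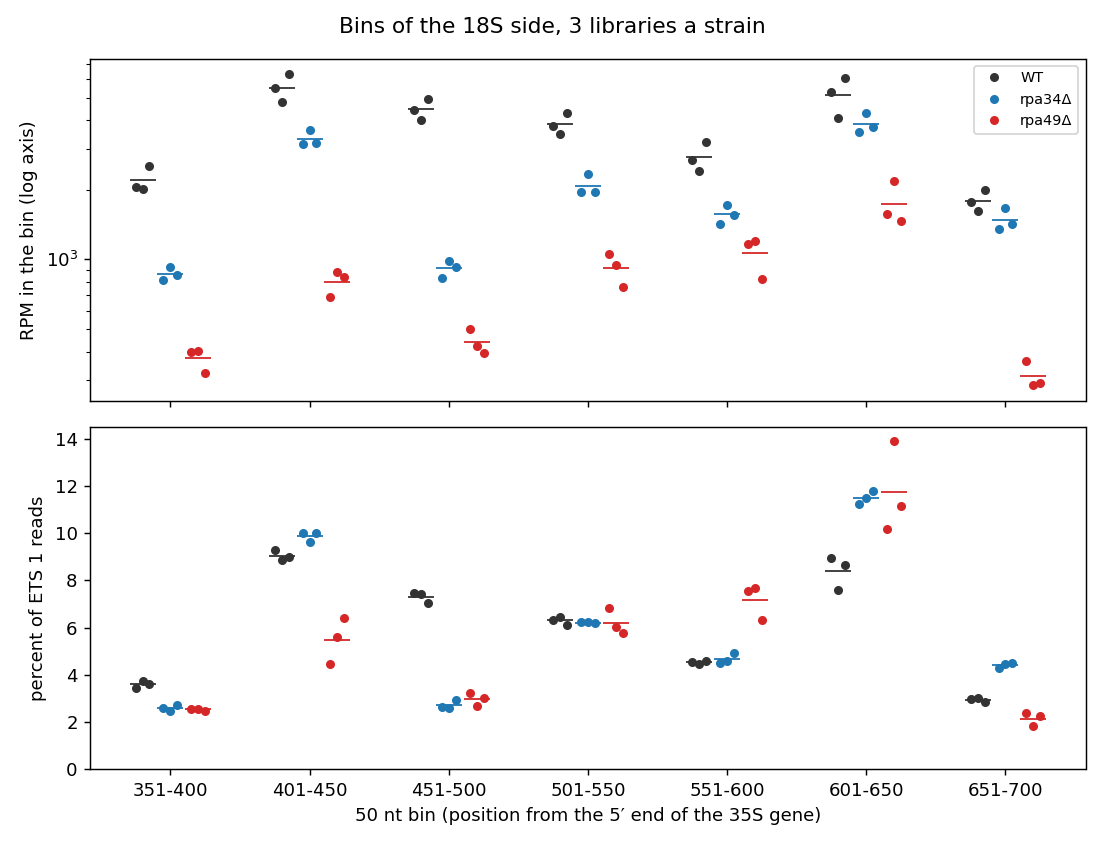
The 7 bins of 50 nt by library, in RPM on a log axis (top) and as a percent of ETS 1 reads (bottom), with dashes at the means of 3 libraries. At 451 to 500 both deletions are below WT in both panels, and at 651 to 700 rpa34Δ is above and rpa49Δ below WT in the bottom panel.

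Reads were more unequally spread in the deletions. The Gini coefficient over the 350 positions, which is 0 for an even spread, was 0.644, 0.627 and 0.636 in the WT libraries, 0.671, 0.674 and 0.666 in rpa34Δ, and 0.729, 0.750 and 0.726 in rpa49Δ. The strains did not overlap (exact permutation p = 0.1 for each pair, adjusted p = 0.114 over the 24 tests of this kind, of which 21 had no overlap). Each library's own 10 highest positions held 27.9% of the segment in WT, 29.2% in rpa34Δ and 49.6% in rpa49Δ. For this share WT and rpa34Δ overlapped (exact permutation p = 0.2), and rpa49Δ lay above both (exact permutation p = 0.1 each). Depth was lowest in rpa49Δ, with a median of 6 to 9 reads a position against 126.5 to 183 in WT. Few reads a position can raise both measures, and their values in thinned libraries are not given here. In the promoter-side segment the Gini coefficient was 0.646 ± 0.0076 in WT, 0.706 ± 0.0116 in rpa34Δ and 0.810 ± 0.00332 in rpa49Δ (SD, n = 3). The change from WT in the 18S-side segment minus that in the promoter-side segment was -0.0246 in rpa34Δ and -0.0644 in rpa49Δ (exact permutation p = 0.1 each). Position 106 counts in the promoter-side segment, and its part in these differences was not tested. The read-weighted mean position was nearer 18S in the deletions, at 540.6 in rpa34Δ and 548.9 in rpa49Δ against 520.3 in WT. Profiles of log2(RPM + 10) over the 350 positions correlated at 0.989 to 0.992 among WT libraries, 0.987 to 0.989 among rpa34Δ and 0.927 to 0.946 among rpa49Δ (Pearson's r across positions of 1 gene, which are not independent). Between WT and rpa34Δ libraries r was 0.819 to 0.840, and between WT and rpa49Δ it was 0.4995 to 0.565. The lower depth of rpa49Δ moves with its lower r, and its part in that was not tested.

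More of the RNA 3′ ends were at U in the deletions. Of the reads in the segment, 16.8%, 17.2% and 16.7% ended in U in the WT libraries, 25.1%, 24.9% and 24.1% in rpa34Δ, and 40.3%, 33.8% and 32.2% in rpa49Δ, where U makes up 29.4% of the positions. The strains did not overlap, and the differences were 7.76 and 18.5 percentage points from WT and 10.8 between the deletions (exact permutation p = 0.1 each). The share at G was lower in the deletions, with 37.0% ± 0.925 of reads in WT, 34.4% ± 0.361 in rpa34Δ and 22.3% ± 2.84 in rpa49Δ (SD, n = 3), at 23.4% of positions. C held 11.9% ± 0.542, 9.74% ± 0.295 and 8.22% ± 0.334, and A 34.2% ± 0.520, 31.2% ± 0.497 and 34.1% ± 2.67, with rpa49Δ overlapping WT (exact permutation p = 0.8). The exact 95% interval of a single library's base share reached at most 1.2 points from its value. With each library thinned to 6078 reads in the segment, the U differences from WT were 7.42 and 19.0 points.

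A large part of the U share in rpa49Δ lay at 6 positions. The run at 523 to 527 and position 577 together held 1.77% ± 0.139 of the segment in WT, 3.74% ± 0.163 in rpa34Δ and 19.2% ± 2.92 in rpa49Δ. Without these 6, a setting chosen after the data were seen, the U share was above WT by 6.33 points in rpa34Δ and 4.77 points in rpa49Δ (exact permutation p = 0.1 each), and rpa49Δ was no longer above rpa34Δ (-1.56 points, p = 0.4). The G difference between rpa49Δ and WT was -10.2 points without them.

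**Figure D5:**
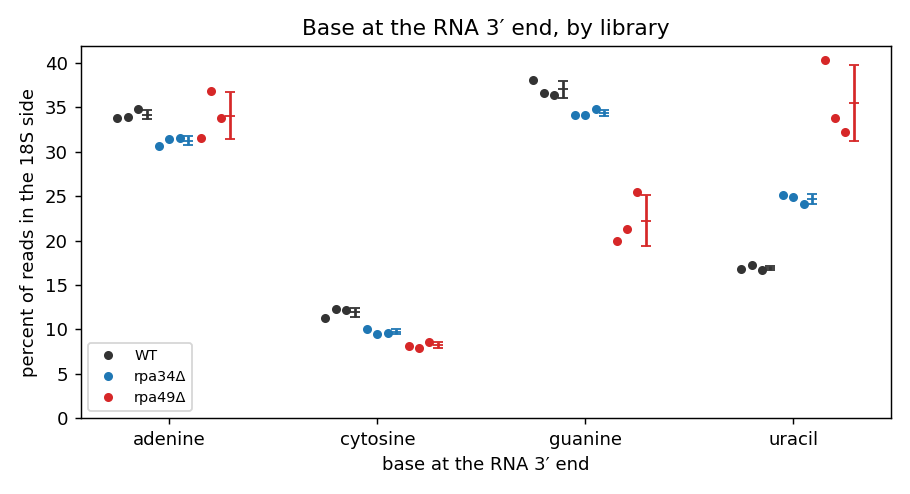
Percent of reads of the segment by base at the RNA 3′ end, 1 point for each library with the mean and SD of 3 libraries beside them. Uracil lies between 16.7% and 17.2% in WT and between 32.2% and 40.3% in rpa49Δ, and guanine has means of 37.0% and 22.3%.

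Calls at single positions of the segment are given by base. Over all tested ETS 1 positions 29.2% were higher and 37.8% lower in rpa34Δ than in WT, and 15.6% and 42.6% in rpa49Δ. Shares for each base over ETS 1 or the gene are not given, so the split by base describes the segment only. On the ETS 1 scale 40 of the 103 U positions were higher and 15 lower in rpa34Δ than in WT by limma, against 23 and 34 of 82 G positions, 32 and 39 of 103 A positions, and 6 and 22 of 62 C positions. In rpa49Δ 31 U positions were higher and 24 lower than in WT, against 4 and 43 for G, 8 and 50 for A, and 8 and 23 for C. On the library scale U positions also fell, 55 of 103 in rpa34Δ and 78 of 103 in rpa49Δ, beside 24.0% and 33.3% of all tested positions of the gene. The median log2 differences of U positions from WT were -0.30 and -0.89, against -0.66 and -1.50 for G.

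The U share was also higher in the deletions outside the 18S-side segment. In the promoter-side segment the U share was 21.1% ± 0.242 in WT, 30.0% ± 0.638 in rpa34Δ and 35.6% ± 5.27 in rpa49Δ. The change from WT in the 18S-side segment minus that in the promoter-side segment was -1.16 points for rpa34Δ (exact permutation p = 0.1) and 4.06 points for rpa49Δ (p = 0.7), so for rpa49Δ no difference between the segments was shown. Position 106, which counts in the promoter-side total, held 18.2%, 13.0% and 8.40% of ETS 1 reads in the rpa49Δ libraries. The promoter-side U share was 30.9%, 34.6% and 41.3% in the same libraries, and its dependence on position 106 was not tested. In mature rRNA the U share was above WT by 1.75 points in rpa34Δ and 2.51 points in rpa49Δ, which was 6.01 and 16.0 points less than in the 18S-side segment (exact permutation p = 0.1 each). The share at G was lower than WT in the promoter-side segment too, with differences of -7.08 points in rpa34Δ and -18.1 points in rpa49Δ. The change from WT in the 18S-side segment was less negative than there by 4.42 and 3.32 points (exact permutation p = 0.1 each). Position 106 counts in the promoter-side total here too, and its part in the rpa49Δ value was not tested. The C share differed between the segments, with 8.22% in the 18S-side segment and 19.0% ± 1.95 in the promoter-side segment of rpa49Δ, against 11.9% and 11.0% ± 0.373 in WT. The change from WT to rpa49Δ in the 18S-side segment minus that in the promoter-side segment was -11.7 points (exact permutation p = 0.1), with position 106 in the latter.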

How the data were processed

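Pol I NET-seq libraries were analysed from 2 deposited tables with 1 row for each nucleotide of the 35S gene. The authors deposited the replicate columns in reads per 1000000 (RPM), and the submitters' processing notes name STAR 2.7.1a, cutadapt 3.4, bcl2fastq 2.20.00, bedtools 2.28.0, SAMtools 1.6 and R 4.0.2, with build R64. Not given in the sources used here are their settings, the treatment of molecular identifiers and that of reads matching several gene copies. The deposited ratio and p-value columns were not used. Each library was rescaled to 1000000 over the gene. Whole reads were recovered from the RPM steps, with at least 99.956% of values whole within 0.01 read and 10 of 61722 not whole. Positions and 50 nt bins were tested with limma 3.58.1 (lmFit, eBayes with trend, R 4.3.3) on log2(RPM + 10), or log2(reads per 1000000 ETS 1 reads + 200), using the 2 groups compared, with Benjamini-Hochberg adjustment. Measures with 1 value a library were compared by exact permutation (two-sided). The position test on the library scale was checked on counts simulated from the WT means and spread, with known changes at some positions. That setting lacks the general fall of the segment, and the ETS 1 scale and bins were not simulated. edgeR 4.0.16 was run on the recovered reads as an alternative. Named positions were the 10 highest in WT and, for each comparison on each of the 2 scales, the 5 largest rises and 5 largest falls past the threshold. The positions, lists and tests were chosen with earlier results of these data known. Other steps ran in Python 3.11.15 with pandas 2.3.3, scipy 1.17.1, matplotlib 3.10.9 and numpy 2.4.6.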

Additional observations from a re-analysis of the deposited data

How the results depend on the processing

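Of 543 recomputed summary values, 504 kept their direction and side of the threshold, 21 moved and 18 changed sign. Exact permutation values, whose smallest p was 0.1, could not cross 0.05, so only their direction could change. Among 2663 recomputed values of single positions and bins, 27 changed sign, 34 lost and 22 gained the threshold. The cause was not tested for any of them. The lower level of the segment and the higher Gini coefficient of both deletions were among those that did not change. Deviations of same-numbered libraries correlated from -0.269 to 0.237, which cannot show whether libraries of the same number were prepared together. With the replicate block 232 positions were lower in rpa34Δ and 303 in rpa49Δ than in WT, and no count of calls moved by over 1.5 times. The bin at 601 to 650 then had limma adjusted p = 0.0615 in rpa34Δ against WT. edgeR on the recovered reads called 13 higher and 231 lower positions in rpa34Δ, 7 and 297 in rpa49Δ, and 5 and 209 between the deletions. For counts under alternative settings, the called shares of all ETS 1 or gene positions are not given. The share of ETS 1 changed sign for rpa34Δ against WT without the 5 highest positions of each segment (3.01 points), with positions capped at the 95th percentile (2.44), with bounds moved inward by 10 nt (0.681) and without position 106 (1.02), and ran from -0.615 to 0.383 with 1 library left out. For rpa49Δ against WT it became 2.17, 2.77 capped and 1.78 without position 106, and between the deletions 0.324 capped and 0.756 without position 106. Without the 5 highest positions of the segment the mean position differed by -1.17 nt and the A share by -8.41 points between the deletions. The A share of rpa49Δ against WT ran from -1.50 to 1.16 points with 1 library left out. The U share between the deletions became -1.56 without the U run and position 577. With the median position of a bin, 0 bins were higher and 4 lower in rpa34Δ than in WT on the ETS 1 scale, 0 were higher in rpa49Δ, and 4 were lower between the deletions. The log2 differences then were -0.48, 0.12 and -0.43 at 401, 501 and 601 for rpa34Δ, -0.24 and -0.78 at 551 and 601 for rpa49Δ, and 0.16, -0.46 and -0.34 at 351, 551 and 601 between the deletions. With 1 library left out, near-zero differences on the ETS 1 scale ran from -0.10 to 0.0235 at bin 501 for rpa49Δ against WT, and between the deletions from -0.0593 to 0.00344 at 351, -0.0746 to 0.0449 at 501 and -0.11 to 0.12 at 601, with 1 to 2 bins higher (2 without rpa49Δ replicate 2). With the ETS 1 median set equal, 160 positions were higher in rpa34Δ than in WT (63 with all 9 libraries in 1 fit), 116 higher and 80 lower in rpa49Δ than in WT, and 79 higher in rpa49Δ than in rpa34Δ. Positions 623 and 624 then differed by 0.0203 and 0.11 in rpa34Δ, and 498 by 0.12 in rpa49Δ. Leaving out 1 library gave 25 to 52 higher positions between the deletions on the ETS 1 scale (25 without rpa34Δ replicate 2 and 27 without replicate 3). On the library scale it gave 2 to 10 (3 without rpa34Δ replicate 1, 2 without its replicate 3, 8 without rpa49Δ replicate 1, 10 without its replicate 3). With a minimum mean of 50 RPM 80 positions were lower in rpa34Δ (115 tested), 72 in rpa49Δ (80 tested), and 3 higher and 41 lower between the deletions (47 tested), since fewer positions were tested. Setting the median equal gave 8 higher between the deletions. Differences near 0 also changed sign with 1 library left out, from -0.22 to 0.0235 at 624 for rpa34Δ and -0.0426 to 0.16 at 560 for rpa49Δ on the ETS 1 scale, and on the library scale from -0.000894 to 0.21 at 524, -0.25 to 0.0299 at 577 and -0.0775 to 0.15 at 636 for rpa34Δ, and -0.00702 to 0.13 at 393 for rpa49Δ. Scaled on mature rRNA, 636 differed by -0.0184 in rpa34Δ and 393 by -0.0188 in rpa49Δ. Depth limits rpa49Δ most, with a median of 6 to 9 reads a position.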
